A study of Mus musculus with 8 samples.

Results

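The cell cycle and DNA replication genes described here are 44 protein-coding genes whose products start the cycle, copy the DNA or divide the cell. They were chosen by symbol from known function, and all 44 were found among the 55401 genes of the deposited count table and passed the filter on low counts, which left 15788 genes. Whole lung of mouse embryos at E13.5 was sequenced in 8 libraries. The 4 mutant libraries are labelled with the Cre genotype written Tbx4tetOcre and the Myrf allele written MyrfE6. The 4 control libraries are labelled cre control. Tbx4 is a transcription factor gene of lung mesenchyme, and Myrf encodes a membrane-bound transcription factor. The labels do not say which cells the Cre acts in, what the MyrfE6 allele lacks or whether the controls carry that allele. They also do not give how many embryos or litters the libraries came from. The p-values therefore reflect the spread among these 8 libraries, part of which may be technical. Sex-linked levels differed within each genotype, as given below, so the libraries of a genotype did not all come from the same embryos.

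A cell that commits to divide raises D-type cyclins, which with Cdk4 phosphorylate the retinoblastoma protein and release E2F factors, and cyclin E with Cdk2 completes the step into S phase. Before that step the MCM helicase is loaded onto replication origins (licensing), and during S phase the DNA is copied behind the sliding clamp Pcna. Genes for G2 and mitosis are repressed by the DREAM complex early in the cycle and are switched on together late in it. In the embryonic lung at this stage, the growing tubes and the mesenchyme around them both divide actively, and transcripts of such genes are widely read as a gauge of how much of a tissue is dividing. The 44 genes were grouped by role into 8 of G1 and the G1/S step, 9 of origin licensing and the helicase, 5 of S phase synthesis and 22 of G2 and mitosis.

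No gene passed the test for a change, and the mean level of each of the 4 groups overlapped between the genotypes. None of the 44 genes passed the test in the mutant lung (edgeR quasi-likelihood test, Benjamini-Hochberg adjusted p below 0.05 over 15788 genes), where 1.49% of all tested genes did. The lowest adjusted p among them was 0.139, for Ccnd1. An unadjusted p below 0.05 was reached by 3 of the 44 (Ccnd1, Aurka and Cdk1), against 13.9% of all tested genes, and DESeq2 and limma-voom also called 0. At those background shares a count of 0 or 3 in 44 says little, so the description below rests on the measured levels and on the interval of each change.

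What the genes share in their sequence was read from RefSeq promoter windows (GRCm38.p6), which 35 of the 44 genes have, in 37 windows. The 6 stretches that follow belong to genes whose values are given in full further on, 4 of G2 and mitosis and then 2 of licensing. They are examples of elements linked to the timing of the 2 groups, and not every gene of a group holds them, as the shares below show. Capitals mark the CCAAT box (CCAAT or ATTGG), the core of the cell cycle genes homology region, abbreviated CHR (TTTGAA or TTCAAA), and E2F-type sites (TTTCCCGC, TTTCGCGC, TTTGCCGC or TTTGGCGC, or the reverse complement). Neighbouring capitals can join overlapping matches. Each stretch reads 5′ to 3′ on the strand of its gene and stops before the first base that the count table gives to the gene.
Cdk1 (chr10:69352939-69353047, minus strand): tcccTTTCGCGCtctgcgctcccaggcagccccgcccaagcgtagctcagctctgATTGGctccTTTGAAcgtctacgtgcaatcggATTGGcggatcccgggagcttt
Aurka (chr2:172370571-172370625, minus strand): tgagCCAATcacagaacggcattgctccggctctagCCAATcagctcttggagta
Cdc20 (chr4:118437353-118437400, minus strand): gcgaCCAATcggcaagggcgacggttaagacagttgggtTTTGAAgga
Top2a (chr11:99024190-99024342, minus strand): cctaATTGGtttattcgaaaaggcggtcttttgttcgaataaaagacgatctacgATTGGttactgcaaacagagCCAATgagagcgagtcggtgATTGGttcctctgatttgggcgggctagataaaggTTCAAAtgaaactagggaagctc
Mcm5 (chr8:75109352-75109508, plus strand): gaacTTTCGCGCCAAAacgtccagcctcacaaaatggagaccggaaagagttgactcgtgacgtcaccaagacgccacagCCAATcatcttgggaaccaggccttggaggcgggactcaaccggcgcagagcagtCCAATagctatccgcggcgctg
Mcm6 (chr1:128359706-128359819, minus strand): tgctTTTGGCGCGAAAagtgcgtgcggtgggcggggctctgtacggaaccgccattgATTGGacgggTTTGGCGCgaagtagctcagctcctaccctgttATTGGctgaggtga

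The first 4 stretches hold CCAAT boxes on either strand, with 4 in Top2a, 2 each in Cdk1 and Aurka and 1 in Cdc20, and a CHR core in all but Aurka. The Cdk1 stretch also holds an E2F match. Both licensing stretches, of Mcm5 and Mcm6, hold overlapping E2F matches and 2 CCAAT boxes each. In the 250 bases before the start, searched on both strands, a CCAAT box was in 16 of 18 windows of G2 and mitosis genes (88.9%), in 6 of 8 licensing windows and in 4 of 5 S phase windows, against 2 of 6 G1 windows and 33.8% of the 32851 windows in the table. A CHR core was in 7 of 18 windows of G2 and mitosis genes (38.9%), 1 of 8 licensing windows and none of G1 or S phase, against 16% of all windows. An E2F match was in 4 of 8 licensing windows, 1 of 6 of G1, 0 of 5 of S phase and 1 of 18 of G2 and mitosis, against 1.86% of all windows. These matches describe letters and show no binding, and no window was at hand for Ccnd1, Ccnd2, Ccne2, Mcm4, Gins2, Ccna2, Aurkb, Kif20a and Tpx2.

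The genes were measured deeply. Totals ran from 17799899 to 48679134 counts per library, with mutant replicate 2 the deepest, and the 44 genes together held 1.028% to 1.062% of the counts. The lowest count of any of them in any library was 728, for Ccne2, and the highest 43228, for Cdk4. All levels below are CPM, meaning counts per M of library total, with M for mega, after scaling by trimmed means of M-values (TMM), so they are relative to the rest of the messenger RNA. Epcam at 185 CPM and Nkx2-1 at 175 CPM in controls mark lung epithelium and Tbx4 at 271 CPM lung mesenchyme, as the tissue label says. Myrf was lower in the mutant lung: controls averaged 114 ± 5.63 CPM and mutants 88.3 ± 4.17 CPM (SD, n = 4; log2 difference -0.37, SE 0.044, adjusted p = 0.000211, edgeR). In whole tissue, fewer cells of a type and less RNA per cell cannot be told apart.

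Some cell type markers also moved with the genotype. Of 6 mesothelium markers, 4 were lower, with a summed level of 137.9 to 147.8 CPM in controls and 86.8 to 100.8 CPM in mutants, and 1 of 6 nerve markers (Ret) was higher, with sums of 27.2 to 29.9 and 32.9 to 37.6 CPM. Summed epithelial markers (1 of 6 higher, Sox2) ran from 587 to 644 CPM in controls and from 616 to 666 CPM in mutants. Mesenchymal ones (1 of 6 lower, Wnt2) ran from 909.9 to 976 CPM and from 879.8 to 936 CPM. Endothelial (1 of 5 higher), blood (1 of 8 higher), heart muscle (0 of 5 tested) and immune sums (1 of 5 lower) overlapped between the genotypes. Xist was under 1 CPM in mutant replicates 1 and 2 only, and Y-linked genes were at or near 0 in control replicates 2 and 3 only. Sex-linked transcripts thus differed between libraries and partly along with the genotype. The part of these differences in the levels below was not tested, apart from a fit with the Y-linked level as a covariate. In that fit no cell cycle gene was called either, and the log2 fold changes of 10 of the 44 genes changed sign.

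In G1 and the G1/S step, none of 8 genes passed the test, and 5 differences were positive and 3 negative, the 2 largest (Ccne2 and Ccnd1) among the negative. Ccnd1, the cyclin D1 gene (ENSMUSG00000070348.5, chromosome 7, 144929931 to 144939925), was at 349.8, 353, 355 and 359.6 CPM in controls, replicates 1 to 4, and at 326, 326, 326 and 346 CPM in mutants in the same order, which is kept throughout. All mutants lay below all controls, and mutant replicate 4 lay nearest to them. The log2 fold change was -0.10 (SE 0.032, adjusted p = 0.139), with a 95% interval from -0.17 to -0.03. Groups also did not overlap for Cdk2, the kinase partner of cyclin E (ENSMUSG00000025358.16, chromosome 10, 128697939 to 128705031), which had the narrowest interval of the group. It was at 149, 154, 153 and 154 CPM in controls and at 158, 158, 161 and 155 CPM in mutants, all higher than the controls, with a log2 fold change of 0.05 (adjusted p = 0.506, SE 0.032).

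Ccne2, the cyclin E2 gene (ENSMUSG00000028212.16, chromosome 4, 11191351 to 11204779), was the lowest of the 44 genes in CPM and had the widest interval. It was at 45.8, 45.7, 47.6 and 43.2 CPM in controls and at 38.8, 43.7, 45.4 and 40.9 CPM in mutants. The groups overlapped, since mutant replicates 2 and 3 lay above control replicate 4. Its log2 fold change was -0.11 (SE 0.054, adjusted p = 0.37), with an interval that reached down to -14.3%. Cdk4, the kinase partner of the D cyclins (ENSMUSG00000006728.12, chromosome 10, 127063534 to 127067920), had the highest level per length of all 44 genes, 267 CPM per kilobase of exon. Its CPM values were 892, 849, 814 and 879.6 in controls and 926, 885, 826 and 878 in mutants, which overlapped, and its log2 fold change was 0.03 (SE 0.037, adjusted p = 0.759).

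The other 4 genes of the group overlapped between genotypes. The remaining D cyclins, Ccnd2 and Ccnd3, had log2 fold changes of -0.03 and 0.03. Ccne1, the other cyclin E gene, had 0.07, opposite in sign to Ccne2, and E2f1, the factor that drives S phase genes, had 0.01. The median over the 8 genes was a log2 fold change of 0.019, beside 1e-04 over all tested genes.

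Among the 9 licensing and helicase genes, none passed the test and none separated the genotypes, and 4 differences were positive and 5 negative. Mcm5, a subunit of the hexameric MCM helicase (ENSMUSG00000005410.6, chromosome 8, 75109569 to 75128439), had the highest level per length of the group, 94.0 CPM per kilobase. It was at 388, 383, 359 and 375 CPM in controls and at 375, 363, 368 and 393 CPM in mutants. Control replicate 3 was the lowest library and mutant replicate 4 the highest, and the log2 fold change was -0.01 (SE 0.036, adjusted p = 0.962). Mcm6, another subunit (ENSMUSG00000026355.11, chromosome 1, 128331590 to 128359664), had the largest difference of the group. Its CPM values were 314, 341, 291 and 329.7 in controls and 346, 337, 312 and 326 in mutants. Control replicate 3 was again lowest, the groups overlapped, and the log2 fold change was 0.05 (SE 0.046, adjusted p = 0.688).

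Mcm3 (ENSMUSG00000041859.10, chromosome 1, 20802968 to 20820312) had the narrowest interval of all 44 genes. It was at 339.5, 345, 334 and 349.8 CPM in controls and at 346, 337, 333 and 340.1 CPM in mutants, which overlapped almost fully, and its interval ran from -5.31% to 3.73%. Cdc6, which loads the helicase (ENSMUSG00000017499.15, chromosome 11, 98907801 to 98923940), was at 72.0, 76.2, 70.5 and 76.9 CPM in controls and at 74.8, 74.0, 75.5 and 79.9 CPM in mutants. The groups overlapped, with a log2 fold change of 0.04 (adjusted p = 0.75, SE 0.042). Gins2, a subunit that activates the helicase (ENSMUSG00000031821.11, chromosome 8, 120578633 to 120589304), had the widest interval of the group, from -6.3% to 8.56%. Its CPM values were 74.3, 66.4, 66.4 and 68.4 in controls and 74.8, 66.7, 65.1 and 71.7 in mutants, with replicate 1 highest in both genotypes. The other subunits Mcm2, Mcm4 and Mcm7 had log2 fold changes of -0.03, -0.03 and -0.02, and Cdt1, the licensing factor that works with Cdc6, had 0.01. The median over the 9 genes was -0.0061.

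None of the 5 S phase genes passed the test or separated the genotypes. Pcna, the sliding clamp of the replicative polymerases (ENSMUSG00000027342.14, chromosome 2, 132249162 to 132253314), had the highest level per length of the group, 139 CPM per kilobase. It was at 345, 329.9, 325 and 338 CPM in controls and at 334, 335, 316 and 339 CPM in mutants. The groups overlapped, with mutant replicate 3 lowest, and the log2 fold change was -0.01 (SE 0.034, adjusted p = 0.898). The subunits of ribonucleotide reductase, which makes deoxynucleotides, are the products of Rrm1 and Rrm2. Rrm2 (ENSMUSG00000020649.11, chromosome 12, 24708241 to 24714146) was at 226, 213, 219 and 246 CPM in controls and at 245, 228, 225 and 245 CPM in mutants. Its log2 fold change of 0.06 (adjusted p = 0.606, SE 0.045) was the largest of the group, and control replicate 4 lay above every mutant.

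Rrm1 (ENSMUSG00000030978.10, chromosome 7, 102441695 to 102469771) had the narrowest interval of the group, from -3.08% to 6.42%, with CPM values of 361, 354, 348 and 358 in controls and 358, 375, 358 and 352 in mutants. Chaf1a, a subunit of the chaperone that assembles chromatin behind the fork (ENSMUSG00000002835.9, chromosome 17, 56040439 to 56072289), was at 188, 189, 182 and 189 CPM in controls and at 182, 173, 177 and 193 CPM in mutants. Mutant replicate 4 was the highest of the 8 libraries, and the log2 fold change was -0.05 (SE 0.038, adjusted p = 0.643). Tyms, the thymidylate synthase gene, had a log2 fold change of 0.04. The median over the 5 genes was 0.0223.

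None of the 22 genes of G2 and mitosis passed the test, and 16 of the differences were positive and 6 negative, with a median of 0.0227. Mki67, which encodes the Ki-67 antigen used to stain dividing cells (ENSMUSG00000031004.8, chromosome 7, 135689784 to 135716361), was at 446, 486, 490.0 and 465 CPM in controls and at 476, 505, 496 and 469.8 CPM in mutants. Control replicate 1 was the lowest and mutant replicate 2 the highest, and the groups overlapped. Its log2 fold change was 0.04 (SE 0.037, adjusted p = 0.658), with an interval from -2.25% to 8.78%. Top2a, the topoisomerase that untangles sister chromosomes (ENSMUSG00000020914.17, chromosome 11, 98992943 to 99024189), was at 568, 576, 601 and 569 CPM in controls and at 555, 587, 610.5 and 561 CPM in mutants. The lowest and the highest library were both mutant, and the interval ran from -5.03% to 5.25% around means of 578 ± 15.3 and 578 ± 25.5 CPM (SD, n = 4).

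The 2 largest differences were in kinases that drive entry into mitosis. Aurka, the Aurora A kinase gene (ENSMUSG00000027496.15, chromosome 2, 172356190 to 172370535), was at 108.6, 109.3, 109.7 and 115.7 CPM in controls and at 120.1, 122.5, 115.4 and 116.2 CPM in mutants. Only control replicate 4 reached into the range of the mutants. The log2 fold change was 0.10 (SE 0.036, adjusted p = 0.206). Cdk1, the kinase partner of cyclin B (ENSMUSG00000019942.13, chromosome 10, 69335146 to 69352938), was at 242, 230.1, 243 and 239 CPM in controls and at 258, 264, 245 and 249 CPM in mutants. All mutants lay above all controls, mutant replicate 3 by the least, with a log2 fold change of 0.09 (adjusted p = 0.229, SE 0.035). Its main mitotic partners did not share a sign: Ccnb2 had a log2 fold change of 0.08 and Ccnb1 of -0.06.

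Cdc20, the activator of the anaphase-promoting complex (ENSMUSG00000006398.15, chromosome 4, 118432901 to 118437352), had the highest level per length of the group, 115 CPM per kilobase. It was at 196, 199, 215 and 225 CPM in controls and at 230.2, 226, 215 and 216 CPM in mutants. Control replicates 3 and 4 lay within the range of the mutants, and the log2 fold change was 0.09 (SE 0.043, adjusted p = 0.387). Kif11, the motor that separates the spindle poles (ENSMUSG00000012443.4, chromosome 19, 37376403 to 37421859), had the widest interval of the group on the log2 scale, from -4.13% to 10.8%. Its CPM values were 144, 161, 149.6 and 159.7 in controls and 149, 156, 175 and 154 in mutants, with mutant replicate 3 highest. Aurkb, the Aurora B kinase gene (ENSMUSG00000020897.12, chromosome 11, 69045647 to 69051664), had the narrowest, from -5.2% to 4.3%, with CPM values of 164, 164, 166 and 172 in controls and 166, 162, 167 and 168 in mutants.

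The other 15 genes of the group overlapped between genotypes, with log2 fold changes from -0.06 for Cenpf to 0.08 for Ccnb2. Between them were the spindle checkpoint kinase genes Bub1 (0.05) and Bub1b (0.00), the mitotic kinase gene Plk1 (0.01) and Ccna2, the cyclin A2 gene (0.02). The centromere and kinetochore genes Cenpa and Cenpe had 0.03 and 0.02. The kinesins of the late spindle, Kif20a and Kif23, had 0.03 and 0.01, and the spindle assembly genes Tpx2 and Nusap1 had 0.04 and -0.04. Birc5, the survivin gene, had -0.02, and Ube2c, the ubiquitin-conjugating enzyme gene of the anaphase-promoting complex, had 0.03. Per length, Cenpf was the lowest of the 44 genes, at 8.16 CPM per kilobase.

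Across all 44 genes, groups did not overlap for 3 (Ccnd1 lower, Cdk2 and Cdk1 higher), where 7.37% of all tested genes showed the same. Signs were positive for 28 genes and negative for 16, with a median log2 fold change of 0.0144. Over all tested genes 7898 were positive and 7890 negative. Among the 5659 genes expressed at or above the lowest of the 44, 2593 were positive and 3066 negative. With the Y-linked covariate 10 of the 44 genes changed sign. All 44 were measured in the same 8 libraries, so their signs are not independent, and the counts were not tested.

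**Figure D1:**
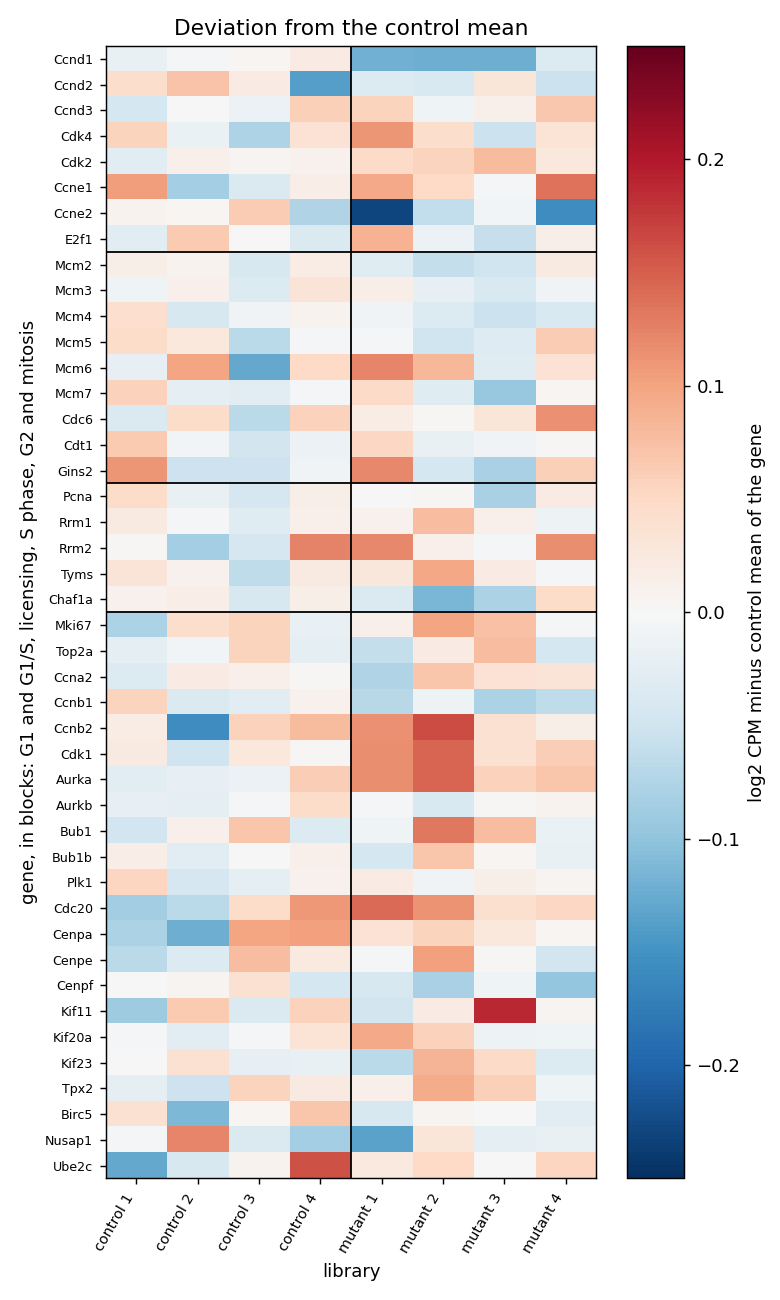
Deviation of each of the 44 genes in each of the 8 libraries from the control mean of that gene, on the log2 CPM scale (colour), with genes in rows by phase and controls left of the vertical line. Colours mix within both genotypes. Ccnd1, Ccne2, Mcm4, Ccnb1 and Cenpf are below their control means in all 4 mutants. Cdk2, Cdc6, Ccnb2, Cdk1, Aurka, Cdc20 and Cenpa are above theirs in all 4.

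The size of change that the data leave outside was read from the 95% interval of each log2 fold change. All 44 intervals lay inside a change of 1.2-fold, which is a rise of 20% or a fall to -16.7%, where 56.5% of all tested genes did so. Precision depends on expression, and among the 5659 genes expressed at or above the lowest of the 44 genes the share was 94%. Inside 1.1-fold lay 34 of the 44, against 55% of those 5659 genes: 5 of 8 in G1 and G1/S, 8 of 9 in licensing, 4 of 5 in S phase and 17 of 22 in G2 and mitosis. With the Y-linked covariate the count inside 1.1-fold was 22 of 44. The bounds reached lowest at -14.3% for Ccne2 and highest at 13.9% for Ccnb2. By group, the lowest and highest bounds were -14.3% and 11.95% in G1 and G1/S, -6.76% and 10.9% in licensing, -8.34% and 11.3% in S phase, and -8.73% and 13.9% in G2 and mitosis. These are intervals for single genes and do not cover all 44 at once.

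**Figure D2:**
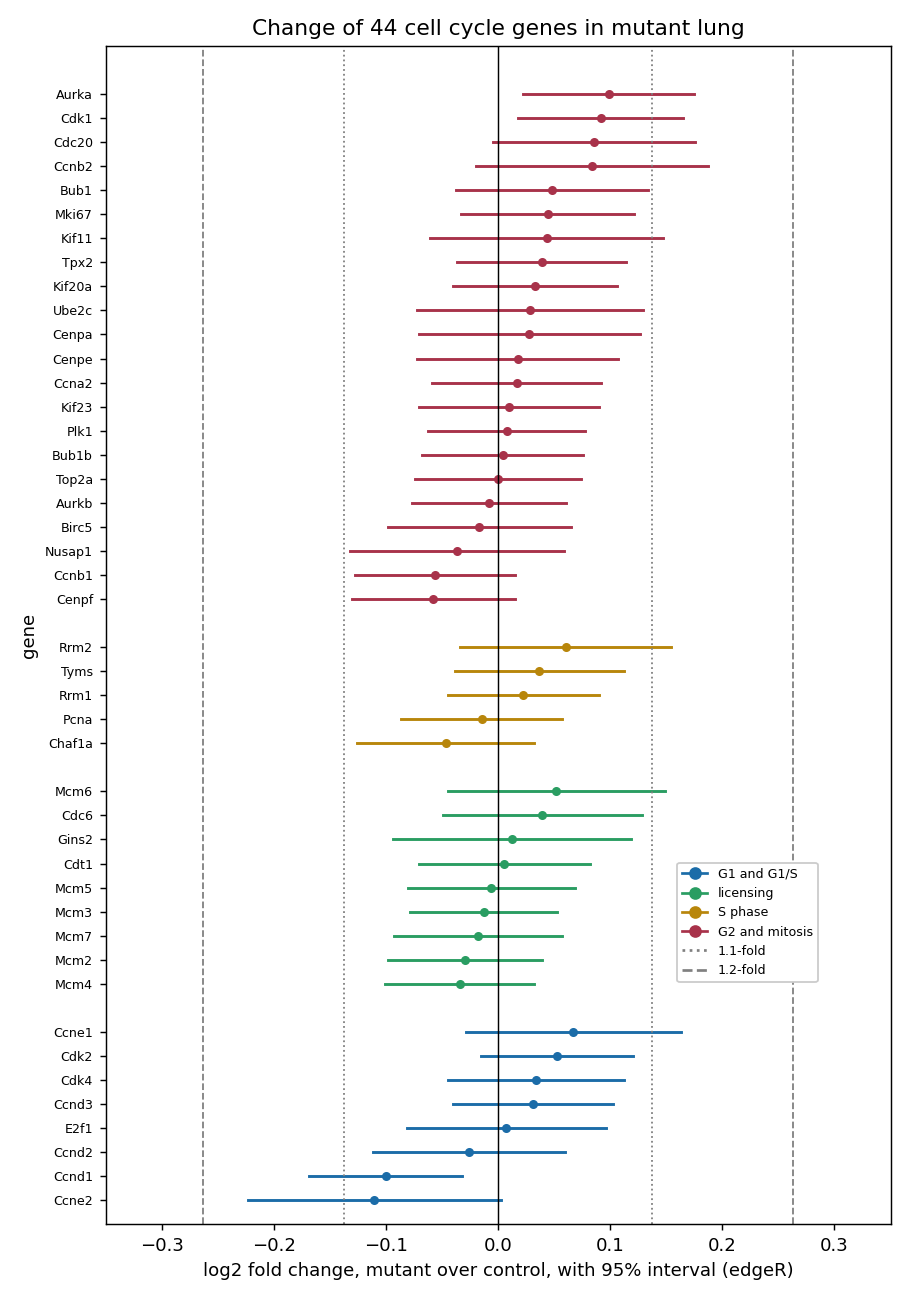
Log2 fold change of each gene, mutant over control (points), with its 95% interval from edgeR (bars), by phase, and dotted and dashed lines at changes of 1.1-fold and 1.2-fold. Every bar lies between the dashed lines, and 41 of the 44 hold 0, the exceptions being Ccnd1, Aurka and Cdk1.

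The 44 genes were abundant and varied little between libraries. Their median interval width was 0.152 on the log2 scale, against 0.293 over all tested genes and 0.180 over the 5659 genes at or above their lowest level. The median biological coefficient of variation, the spread between libraries beyond counting error, was 4.60% for the 44 genes, 6.64% for all tested genes and 4.498% for the 5659.

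**Figure D3:**
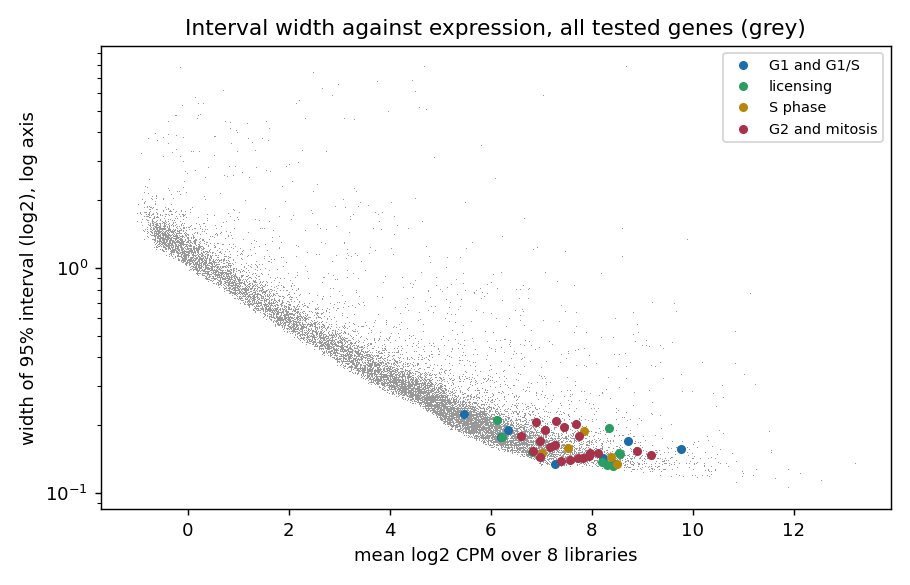
Width of the 95% interval of the log2 fold change (log axis) against mean log2 CPM over the 8 libraries, for all 15788 tested genes (grey points) and the 44 genes (coloured by phase). The coloured points lie on the right, where the grey points are also narrow, with a median width of 0.152.

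A shift common to a whole phase was read from the mean level of its genes in each library. The mean log2 CPM of the 8 genes of G1 and G1/S was 7.57, 7.56, 7.55 and 7.54 in controls and 7.55, 7.54, 7.54 and 7.56 in mutants. The difference of the genotype means was -0.0056, or -0.390% (0.0051 on the log2 scale with scaling by total counts only). Its exact interval, from the smallest to the largest of the 16 differences between a mutant and a control library (97.1% coverage for a shift), ran from -1.85% to 1.23%. For licensing the values were 7.75, 7.73, 7.67 and 7.74 in controls and 7.76, 7.70, 7.68 and 7.75 in mutants, a difference of 0.108% with an interval from -4.70% to 6.36%. For S phase they were 7.87, 7.83, 7.80 and 7.88 in controls and 7.87, 7.86, 7.82 and 7.88 in mutants, a difference of 0.799% with an interval from -4.33% to 5.45%. For G2 and mitosis they were 7.53, 7.53, 7.58 and 7.58 in controls and 7.56, 7.62, 7.59 and 7.55 in mutants, a difference of 1.58% with an interval from -2.06% to 5.93%. The groups overlapped in all 4 phases. Over all 44 genes the difference was 0.830%, with an interval from -1.17% to 2.54%.

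**Figure D4:**
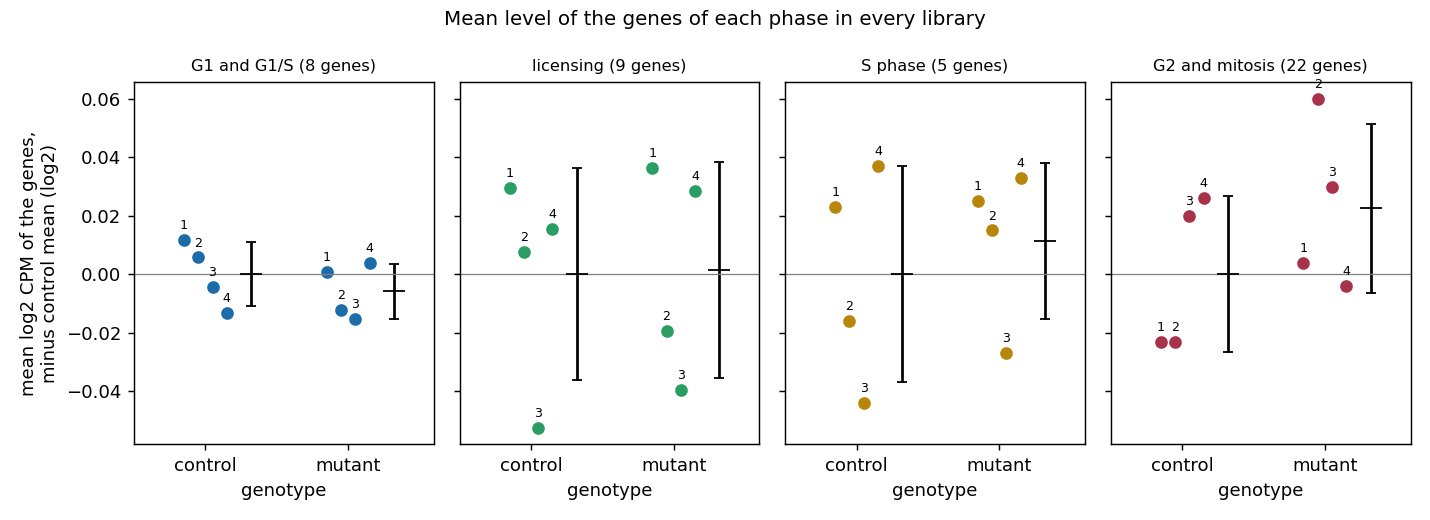
Mean log2 CPM of the genes of each phase in every library, minus the control mean of that phase; numbers are replicates, and bars give the mean and SD of the 4 libraries. Genotypes overlap in each panel, and the largest distance between any 2 libraries is 0.089, in licensing.

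A change of 1.2-fold in these transcripts across the whole lung thus lay outside the interval of each single gene. A shift common to a phase beyond a rise of 6.36% or below -4.70% lay outside all 4 phase intervals. The phase intervals were not computed with the Y-linked covariate or the replicate block. These bounds are on transcript levels relative to total messenger RNA. No dividing cells were counted, so they do not convert to a rate of division, and a change limited to a cell type that makes up a small share of the lung would be diluted in them.

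Libraries varied along a pattern that did not follow the genotype. The level of G2 and mitosis minus that of licensing, on the log2 scale, was -0.218, -0.195, -0.092 and -0.153 in the controls and -0.197, -0.086, -0.095 and -0.197 in the mutants, a contrast chosen after the levels were seen. Control replicate 3 and mutant replicates 2 and 3 were the highest. The difference between genotypes was 0.0211, with an exact interval from -0.105 to 0.132. In control replicate 3, 0 of 9 licensing genes and 0 of 5 S phase genes lay above their control mean, while in mutant replicate 2, 18 of 22 genes of G2 and mitosis did and 2 of 9 licensing genes did.

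Other genes of the cycle were taken from 4 lists of known function with 128 genes, of which 126 were tested. Only 1 of them passed the test, Cdkn2c, which was higher (1.49% of all tested genes were called). An unadjusted p below 0.05 was reached by 8 of the 126, against 13.9% of all tested genes. Their median log2 fold change was 0.0161. The intervals of 122 of the 126 lay inside 1.2-fold, against 56.5% of all tested genes and 94% of the 5659 defined above. The exceptions among the 126 were Cdkn2c, Cdkn1a, the retinoblastoma gene Rb1 and the condensin gene Ncapd2.

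The cyclin-dependent kinase inhibitors brake the cycle, those named Cdkn2 by binding Cdk4 and Cdk6. Cdkn2c, which encodes p18INK4c (ENSMUSG00000028551.14, chromosome 4, 109660876 to 109667189), was at 11.2, 10.8, 12.9 and 11.3 CPM in controls and at 13.7, 14.4, 15.5 and 14.5 CPM in mutants. All mutants lay above all controls. The means were 11.6 ± 0.931 and 14.5 ± 0.727 CPM (SD, n = 4), a log2 fold change of 0.33 (adjusted p = 0.0453, edgeR, SE 0.079) with an interval from 0.16 to 0.49. The call held in 9 of 17 alternative fits, with adjusted p from 0.00844 to 0.131, and the sign in all 17; it was lost in the other 8. These were the fits with the Y-linked covariate (adjusted p = 0.126), without robust estimation (adjusted p = 0.0624) and without each of control replicates 1, 2 and 4 and mutant replicates 1, 2 and 3 (adjusted p from 0.0563 to 0.131). The summed mesothelium and nerve markers given above moved with genotype in the same libraries, and their part in this difference was not tested.

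Cdkn1c, which encodes p57 (ENSMUSG00000037664.13, chromosome 7, 143458339 to 143461050), was the most abundant inhibitor, at 374, 371, 414 and 427 CPM in controls and 446, 397, 431 and 439 CPM in mutants. The groups overlapped, with a log2 fold change of 0.11 (adjusted p = 0.325, SE 0.049). Cdkn1b, which encodes p27, was at 48.0, 51.1, 53.7 and 49.7 CPM in controls and 45.8, 46.8, 44.8 and 54.6 CPM in mutants, with a log2 fold change of -0.08 (adjusted p = 0.595). Cdkn1a, the p21 gene that p53 induces, was at 7.38, 9.74, 9.48 and 8.05 CPM in controls and 7.33, 7.74, 8.87 and 8.82 CPM in mutants, with a log2 fold change of -0.09 (adjusted p = 0.779). For Cdkn2d, which encodes p19INK4d, they were 22.8, 21.6, 23.8 and 27.0 CPM in controls and 22.2, 24.6, 24.4 and 24.4 CPM in mutants. Cdkn2a had at most 4 counts in a library and Cdkn2b at most 18, so neither was tested.

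**Figure D5:**
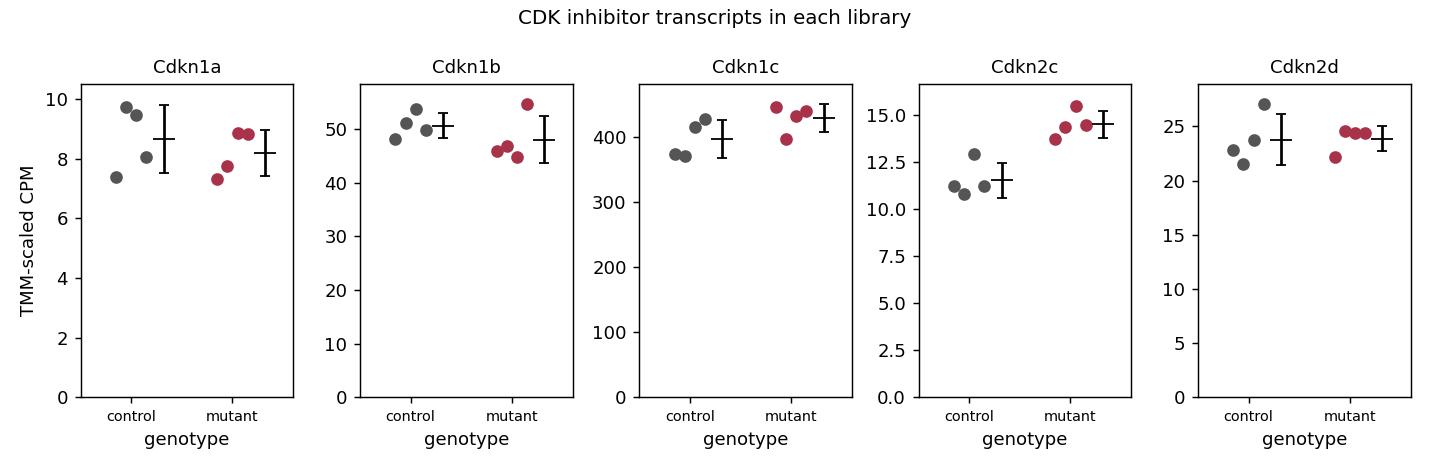
TMM-scaled CPM of the 5 tested inhibitor genes in each library (points), with the mean and SD of 4 libraries (bars), each panel on its own axis from 0. Only in the Cdkn2c panel do all 4 mutants, at 13.7 to 15.5 CPM, lie above all 4 controls, at 10.8 to 12.9 CPM.

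None of 18 pocket protein, E2F and DREAM genes was called, with a median log2 fold change of -0.0115. The lowest p-values there belonged to Rbl1, which encodes the pocket protein p107, with a log2 fold change of -0.12 (adjusted p = 0.224, SE 0.047), and to E2f7, an E2F repressor, with -0.10 (SE 0.047, adjusted p = 0.37). None of 43 genes of the replication origin and fork was called, with a median of 0.026. Gins4, a partner of Gins2 in the helicase, had 0.14 (SE 0.056, adjusted p = 0.261), and Uhrf1, which brings maintenance methylation to new DNA, had -0.09 (SE 0.039, adjusted p = 0.291). None of 60 genes of spindle, kinetochore and cytokinesis was called, with a median of 0.0145. Smc2, a condensin subunit, had -0.10 (SE 0.037, adjusted p = 0.204), and Pbk, a mitotic kinase, had 0.09 (SE 0.038, adjusted p = 0.33). Each of these 6 genes missed the threshold.

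Few overlaps in counting were found among those looked for. Only Mcm7 and Top2a share exon bases with another gene on the same strand, 3.89% with Mir25 and Mir93 and 1.35% with Gm23451. Processed copies named after Ccnb1, Ccnb2, Ccnd3, Pcna and Tyms held between 0 and 307 counts over all 8 libraries, so few reads were assigned to them, and reads that map to both gene and copy were not counted. Copies annotated under other names and overlaps on the opposite strand were not looked for.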

How the data were processed

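RNA was isolated with TRIzol LS and made into stranded messenger RNA libraries, per the labels' protocols. The deposited values are raw counts of read pairs per gene, made by the authors with featureCounts 1.6.4, strand option 2, over GENCODE vM25 exons, per the file headers, which set no option for multi-mapping or multi-overlapping reads. STAR, DESeq2 and the build GRCm38 (mm10) are named in the submitters' processing notes, with no STAR version in the sources used here. The exon length in the deposited table served only for CPM per kilobase.

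All 8 libraries entered 1 fit in edgeR 4.0.16 (R 4.3.3): the package's low-count filter, TMM scaling, robust dispersions, a two-sided quasi-likelihood test without covariates, and Benjamini-Hochberg adjustment over 15788 genes. Intervals are the log2 fold change ± the t quantile times SE. Phase levels are mean log2 CPM with a prior count of 2. DESeq2 1.42.0, limma 3.58.1, other scalings and filters, thinning, a Y-linked covariate, a replicate block and leaving out each library were alternatives. The steps were checked on simulated counts. No 2 libraries of a genotype were duplicates.

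Given with every library's value were Mki67, Top2a and, per phase, the gene highest per length, those with the 2 largest changes and those with the widest and narrowest interval and, of other lists, called genes and all tested inhibitors; the 2 genes with the lowest p-values of each other list are given by their log2 fold change. The genes, lists and tests were chosen with earlier results of these data known.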

Additional observations from a re-analysis of the deposited data

Results flagged for a closer look

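Of 98 groups of 4 libraries looked at, 5 held a library whose distance to its nearest neighbour took up most of the range of its group (Dixon's 95% limit for 4 values). Chance flags about 1 in 20 groups, so 5 of 98 is near that share. Ccnd1 was at 346 CPM in mutant replicate 4 and at 325.5 to 326 CPM in the other mutants; without that library its log2 fold change was -0.12 (adjusted p = 0.0541, edgeR), which still missed the threshold. Cdk2 was at 149.3 CPM in control replicate 1 and at 153.1 to 153.8 CPM in the other controls. Aurka was at 115.7 CPM in control replicate 4 and at 108.6 to 109.7 CPM in the other controls. In control replicate 3, Mcm2 was at 289.1 CPM against 299.1 to 301.1 CPM, and Chaf1a at 181.8 CPM against 188.2 to 189 CPM.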

How the results depend on the processing

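In all 17 alternative fits no cell cycle gene of the 44 was called and all 44 intervals stayed inside 1.2-fold. The outermost bounds over these fits were -16.2% (Ccne2, without control replicate 4) and 17.9% (Ccnb2, with the replicate block). The count inside 1.1-fold, 34, was 22 with the Y-linked covariate. The median log2 fold change, G1 and G1/S control genes, was 0.019; it was 0.0299 with scaling by total counts only and 0.0338 with no low-count filter, and ran from -0.0016 to 0.0381 on leaving out each library. The mean log2 level difference, G1 and G1/S control genes, went from -0.0056 to 0.0051 with total counts only. Mean differences were computed only for the other scalings, thinning and leaving out each library, not with the Y-linked covariate or the replicate block. Over those fits the mean differences of licensing (-0.0137 to 0.0211) and S phase (-8e-04 to 0.0299) also took both signs. That of G2 and mitosis stayed positive (0.015 to 0.0334). Over all alternatives the medians of licensing (-0.0256 to 0.0148) and S phase (-0.0069 to 0.0373) took both signs. The median of G2 and mitosis stayed positive (0.0102 to 0.0376). The count of other cell cycle genes called, 1, was 0 without robust estimation and 0 with the Y-linked covariate, and ran from 0 to 2 on leaving out each library: 2 (Cdkn2c and Pold1) without mutant replicate 4, 1 without control replicate 3 and 0 without each of the other 6. The fits that leave out a library have fewer samples; otherwise the cause was not tested.

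Replicate numbers are shared by the genotypes, but the labels do not say what they mark, so they were not taken as pairs in the main fit. In their deviations, same-numbered libraries correlated above 0.1 for 1 of 4 pairs (0.0125 to 0.181). Of the 4, 3 correlated best with their own number. With the replicate block, 0 of the 44 genes were called and 37 intervals lay inside 1.1-fold, while calls over all tested genes went from 236 to 541. The gene with the lowest count of the 44 in a library (728), Ccne2, also had the widest interval; the part of depth in that width was not tested.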
